A study of Mus musculus with 6 samples.

Results

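The proteasome is the protease that degrades ubiquitin-tagged proteins in the cytosol and nucleus, and this account describes the transcripts of its subunits in cultured mouse chondrocytes. The genes were taken from the deposited count table by symbol, as Psma, Psmb, Psmc, Psmd, Psme, Psmf or Psmg followed by a number. This gave 48 of the 35976 genes in the table, of which 46 passed the filter on low counts. The 2 that did not were Psmb9 and Psmb11.

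The cells were chondrocytes, the matrix-producing cells of cartilage, from the hind limb articular cartilage of embryos at day 18.5 on a C57BL/6 x 129S4/SvJae background. They were expanded as a monolayer on plastic for 16 population doublings, with doxycycline at 2 µg/ml throughout to induce a histone H3.3 transgene. Lysine 9 of the induced histone was methionine in the H3K9M group, whose methylation at that residue the labels call suppressed, and the histone was wild type in the H3WT group, so both groups carried an induced transgene and were exposed to doxycycline. There were 3 libraries of polyadenylated RNA in each group, replicates 1, 3 and 5 of H3K9M and replicates 1, 2 and 4 of H3WT. Library values below are always given in that order. The labels do not say whether the replicates came from separate animals, so the tests measure the spread between these libraries, which may be technical, and they do not name the promoter that drives the inducer.

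The proteolytic core, the 20S particle, is a stack of rings. The outer rings are built from 7 alpha subunits, which gate the entry of substrates, and the inner rings from 7 beta subunits, of which β1, β2 and β5 carry the active sites. A regulatory particle binds the ends of the core, with a base whose 6 ATPases unfold substrates and a lid that removes ubiquitin. In cells exposed to interferon gamma, β1i, β2i and β5i replace the active-site subunits and form the immunoproteasome, which cuts peptides suited to presentation on MHC class I. When proteasome activity is short, the transcription factor Nrf1, encoded by Nfe2l1, is known to raise the transcription of the subunit genes together through antioxidant response elements in their promoters.

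The results turn on the constitutive active-site subunits and their interferon-inducible counterparts, so the promoters of both members of the β5 pair (Psmb5 and Psmb8) and of the β1 pair (Psmb6 and Psmb9) are shown. They run from 250 bases before to 50 after the annotated start in RefSeq, build GRCm38.p6. Psmb5 lies at chr14:54617946-54618245 on the minus strand, Psmb6 at chr11:70525107-70525406 on the plus strand, Psmb8 at chr17:34197945-34198244 on the plus strand and Psmb9 at chr17:34187281-34187580 on the minus strand. Capitals mark an antioxidant response element (TGACNNNGC on either strand, N being any base) in Psmb5 and Psmb6, an interferon gamma activation site (TTCNNNGAA) in Psmb8, and a CCAAT box (CCAAT on either strand) in Psmb9.
Psmb5: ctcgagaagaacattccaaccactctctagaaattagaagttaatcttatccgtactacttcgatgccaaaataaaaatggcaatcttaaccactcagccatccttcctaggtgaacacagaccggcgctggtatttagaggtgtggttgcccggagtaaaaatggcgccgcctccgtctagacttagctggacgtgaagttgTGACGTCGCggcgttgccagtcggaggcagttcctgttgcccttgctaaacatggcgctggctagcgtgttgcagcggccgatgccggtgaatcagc
Psmb6: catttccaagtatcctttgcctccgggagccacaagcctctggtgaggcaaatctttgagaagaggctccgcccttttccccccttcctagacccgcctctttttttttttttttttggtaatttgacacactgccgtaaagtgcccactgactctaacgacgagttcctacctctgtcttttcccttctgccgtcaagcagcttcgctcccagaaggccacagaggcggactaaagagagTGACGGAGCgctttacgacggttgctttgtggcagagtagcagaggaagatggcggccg
Psmb8: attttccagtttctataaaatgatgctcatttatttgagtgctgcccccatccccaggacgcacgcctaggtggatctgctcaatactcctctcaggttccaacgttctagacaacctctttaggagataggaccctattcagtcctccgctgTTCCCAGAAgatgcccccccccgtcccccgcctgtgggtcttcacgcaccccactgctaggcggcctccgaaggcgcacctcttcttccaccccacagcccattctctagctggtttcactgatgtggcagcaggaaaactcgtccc
Psmb9: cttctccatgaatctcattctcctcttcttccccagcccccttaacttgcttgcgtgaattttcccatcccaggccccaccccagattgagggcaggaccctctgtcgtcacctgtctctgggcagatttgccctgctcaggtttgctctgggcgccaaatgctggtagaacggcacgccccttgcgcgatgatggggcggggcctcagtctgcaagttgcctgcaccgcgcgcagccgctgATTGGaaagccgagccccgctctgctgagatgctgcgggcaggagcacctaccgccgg
The element began at position -47 from the start in Psmb5 and at -9 in Psmb6, the activation site at -97 in Psmb8 and the CCAAT box at -8 in Psmb9. Promoters were found for 40 of the 48 genes, some with more than 1, and 6 of these 40 genes held the antioxidant response element (Psmb5, Psmb6, Psmc6, Psmd12, Psmd9 and Psme4). That was 14% of 43 promoters, against 12.4% of all 32851 promoters of the same length. The interferon-stimulated response element, searched on both strands, stood in 11.6% of the 43 and 3.44% of all, in Psmb3, Psmd4, Psmd9, Psme1 and Psmg4. The activation site stood in 6.98% and 8.30%, and the CCAAT box in 32.6% and 37.4%. A match is a run of letters and was not tested as a binding site.

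Libraries held 15113675 to 19606082 counts, and levels are given as CPM, counts divided by library size after TMM scaling. The labelled cell type was checked against 14 chondrocyte marker symbols, of which 12 were in the table and all 12 had counts, Col2a1, the main cartilage collagen, with 4913 to 14110 CPM. Immune and blood markers summed to 7.48 to 23.4 CPM, with Ptprc, Adgre1, Tyrobp, Itgam, Cd3e and Hbb-bs at 0 in every library, and endothelial markers to 0.104 to 0.825 CPM, with Cdh5, Tie1 and Emcn at 0. Skeletal muscle markers, 9 of 10 with counts, summed to 167.3, 237.4 and 27.2 CPM in the H3K9M libraries and 32.0, 13.2 and 27.5 CPM in the H3WT libraries. H3K9M replicates 1 and 3 thus stood apart in this sum, and results are given without both where it matters. Replicate 5 of H3K9M was also above every H3WT library in Myod1, Des, Myh3 and Tnnt3. It had 4.29 CPM of Myod1 and 8.78 CPM of Des, against at most 1.04 and 6.80 CPM in H3WT. In Acta1 it had 5.97 CPM, against 26.2, 3.27 and 24.0 CPM in the H3WT libraries. In these bulk libraries, fewer cells of a type and less RNA per cell cannot be told apart. Across the transcriptome 0 of 13761 genes (0%) had an adjusted p under 0.05 (edgeR quasi-likelihood test, Benjamini-Hochberg), and 12.2% had an unadjusted p under 0.05.

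Transcripts of the proteasome core were higher in H3K9M in every subunit, by a small amount that did not pass the test in any single gene. All 14 constitutive alpha and beta genes had a positive log2 fold change (H3K9M over H3WT throughout), from 0.14 to 0.58 with a median of 0.36, while the median of all genes tested was -0.003 and 49.6% of genes were positive. For 10 of the 14 the libraries of the groups did not overlap, against 10.7% of all genes tested. An unadjusted p under 0.05 was reached by 9 of the 14, all higher, against 6.42% of all genes tested. The genes do not count as independent measurements, since they come from the same 6 libraries. Over all 48 genes the 46 tested had a median of 0.25, 13 had an unadjusted p under 0.05 as higher and 0 as lower (5.77% of all genes tested were lower at that p), and the groups did not overlap in 18, all higher (8.68% of all genes tested were lower without overlap). None had an adjusted p under 0.05, the smallest being 0.227.

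**Figure D1:**
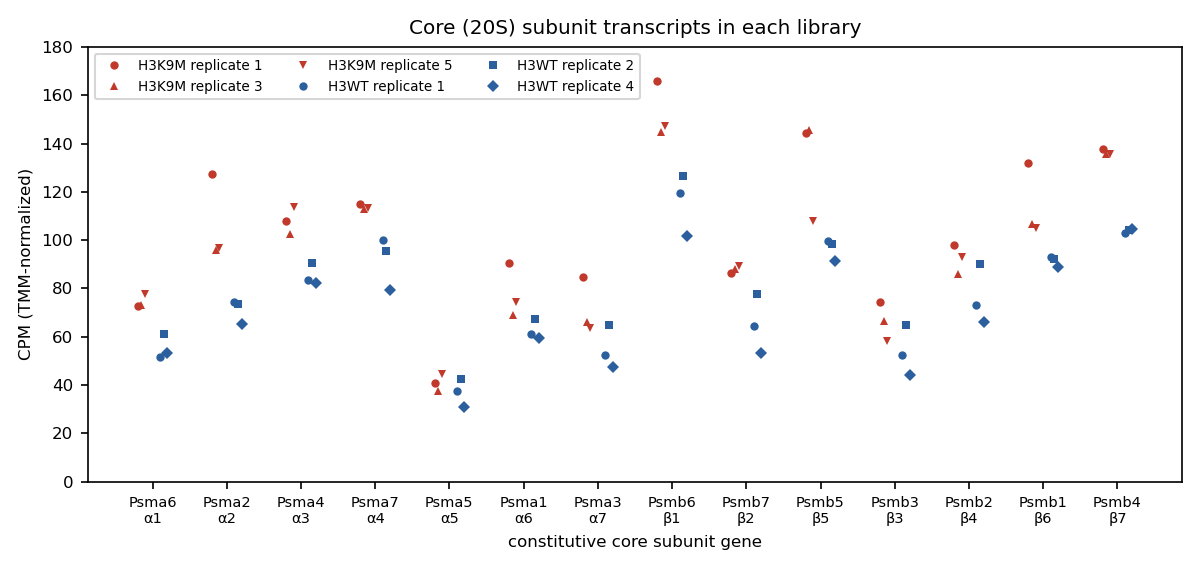
TMM-normalized CPM (y axis) of the 14 constitutive core genes (x axis, with subunit names) in each of the 6 libraries, red for H3K9M and blue for H3WT. H3K9M libraries lie above H3WT libraries without overlap in 10 genes, and H3WT replicate 4 is the lowest in 12 of the 14.

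Short transcripts as a whole were also shifted towards H3K9M, and the core's difference was smaller once length and GC content were fitted together. When all tested genes were split by transcript length into 5 bins of about equal size, the shortest bin (up to 1652 bases) had a median log2 fold change of 0.20 and the longest bin (from 4945 bases) had -0.13. In the shortest bin 14.6% of genes were higher at an unadjusted p under 0.05, against 2.97% in the longest. The core genes had a median length of 1163 bases and the base and lid genes 1636. Library by library, the median deviation of the shortest bin from each gene's mean (log2, members left out) was 0.14, 0.11 and 0.09 in the H3K9M libraries and -0.09, -0.06 and -0.11 in the H3WT libraries. For the core genes it was 0.27, 0.14 and 0.15 against -0.19, -0.07 and -0.33, so the libraries of each group lay on the same side in both. After a per-library offset that fits length together with GC content, the core median was 0.09, 10 of the 14 genes were positive, and 1 of the 14, Psma2, had an unadjusted p under 0.05 as higher (4.37% of all genes did under that fit). Values under this fit are called offset-adjusted below, and length and GC content were not fitted apart. The fit used annotated lengths, 2911 bases for Psma2 and 2846 for Psma3. The offset-adjusted values of these 2 genes therefore depend on which transcript the cells use.

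**Figure D2:**
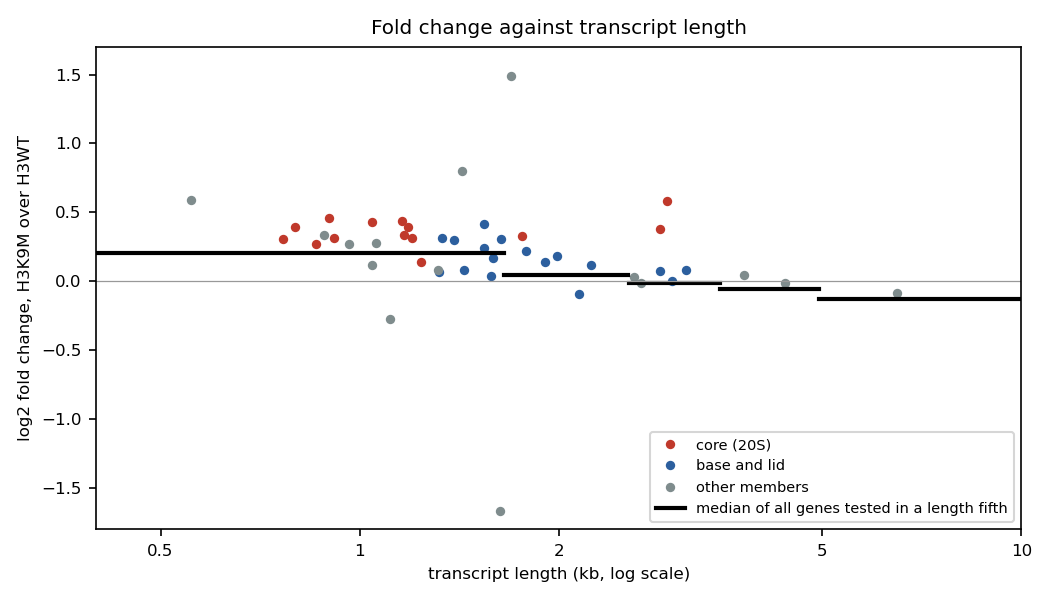
Log2 fold change (y axis) of each of the 46 tested members against transcript length (x axis, log scale), with black bars at the median of all genes tested in each length bin. Most core genes (red) are short, and the bars descend from 0.20 in the shortest bin to -0.13 in the longest.

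In the alpha rings, 4 of the 7 genes had an unadjusted p under 0.05 as higher (6.42% of all genes tested did). In 5 the groups did not overlap, all higher (10.7% of all genes tested). Psma2, which encodes α2, had 127, 95.9 and 96.6 CPM in the H3K9M libraries and 74.4, 73.5 and 65.2 CPM in the H3WT libraries (log2 fold change 0.58 ± 0.15 SE, adjusted p 0.227). H3K9M replicate 1 was the highest, and the other 2 H3K9M libraries still lay above every H3WT library. Psma2 had the smallest p of the 46 members, and its offset-adjusted log2 fold change was 0.39. Psma6, encoding α1, had 72.8, 73.2 and 77.7 CPM in the H3K9M libraries and 51.5, 61.3 and 53.1 CPM in the H3WT libraries (log2 fold change 0.43 ± 0.12 SE, adjusted p 0.255), with narrow spread in H3K9M and a clear gap between the groups. Psma4, encoding α3, had 108, 102 and 114 CPM in the H3K9M libraries and 83.7, 90.5 and 82.5 CPM in the H3WT libraries (log2 fold change 0.34 ± 0.11 SE, adjusted p 0.296). Psma7, encoding α4, had 115, 113 and 113 CPM in the H3K9M libraries and 100.04, 95.5 and 79.4 CPM in the H3WT libraries (log2 fold change 0.31 ± 0.12 SE, adjusted p 0.375). The H3K9M values of Psma7 were almost equal, and the spread lay in H3WT, where replicate 4 was low. Psma1, encoding α6, had 90.5, 68.9 and 74.5 CPM in the H3K9M libraries and 61.0, 67.4 and 59.3 CPM in the H3WT libraries (log2 fold change 0.32 ± 0.14 SE, adjusted p 0.414), separated by only 68.9 against 67.4 CPM at the inner edge. In Psma3 (α7) and Psma5 (α5) the groups overlapped, with log2 fold changes of 0.38 ± 0.17 (SE, with adjusted p 0.421) and 0.14 ± 0.16 (SE, with adjusted p 0.782). Offset-adjusted, Psma1, Psma4 and Psma5 had -0.03, -0.01 and -0.12.

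All 3 active-site beta subunits had higher means in H3K9M, without overlap of the groups (10.7% of all genes tested were higher without overlap). Psmb5, encoding β5, which has chymotrypsin-like activity, had 144, 146 and 108 CPM in the H3K9M libraries and 99.5, 98.3 and 91.3 CPM in the H3WT libraries (log2 fold change 0.46 ± 0.14 SE, adjusted p 0.280). Psmb6, encoding the caspase-like β1, had 166, 145 and 147 CPM in the H3K9M libraries and 119.7, 127 and 102 CPM in the H3WT libraries (log2 fold change 0.39 ± 0.13 SE, adjusted p 0.293). Psmb7, encoding the trypsin-like β2, had 86.6, 88.3 and 89.2 CPM in the H3K9M libraries and 64.4, 77.7 and 53.2 CPM in the H3WT libraries (log2 fold change 0.43 ± 0.15 SE, adjusted p 0.324). In Psmb5 the H3WT libraries were close together and H3K9M replicate 5 sat nearest to them, whereas in Psmb7 the H3K9M libraries were close together and H3WT spread. The 3 offset-adjusted log2 fold changes were 0.25, 0.14 and 0.14 in the same order. Psmb7 shares an overlap with Nek6 on the opposite strand, so its reads are uncertain if counting ignored strand. Nek6 had a log2 fold change of -0.23 ± 0.27 (SE, with adjusted p 0.783).

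Among the other beta subunits, which hold the ring together without active sites, Psmb4 (β7) varied little within either group. It had 138, 136 and 136 CPM in the H3K9M libraries and 103, 104 and 105 CPM in the H3WT libraries, a mean of 136 ± 1.22 CPM against 104 ± 0.989 CPM (SD, n = 3 each). The difference was many times the spread in either group, but its adjusted p was 0.232 (log2 fold change 0.39 ± 0.10 SE). The quasi-likelihood test moderates each gene's spread towards that of the other genes. Psmb1 (β6) had 132, 107 and 105 CPM in the H3K9M libraries and 93.0, 92.1 and 89.0 CPM in the H3WT libraries (log2 fold change 0.33 ± 0.13 SE, adjusted p 0.368), also without overlap. For Psmb2 (β4) and Psmb3 (β3) the groups overlapped, with log2 fold changes of 0.27 ± 0.14 (SE, with adjusted p 0.483) and 0.30 ± 0.17 (SE, with adjusted p 0.508). The offset-adjusted values were 0.17 (Psmb4), 0.11 (Psmb1), -0.06 (Psmb2) and 0.002 (Psmb3).

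In the regulatory particle the class medians were below that of the core, with ranges that overlapped (-0.09 to 0.41 against 0.14 to 0.58), and the difference between the classes was not tested. The 6 ATPases had a median log2 fold change of 0.14, the 3 base subunits without ATPase activity 0.08, and the 8 lid subunits 0.16, and 3 of these 17 genes had an unadjusted p under 0.05, all higher (6.42% of all genes tested were). The groups did not overlap in 4 of the 17, all higher (10.7% of all genes tested). Psmc3, the ATPase Rpt5, had 234, 241 and 203 CPM in the H3K9M libraries and 180.3, 189 and 178 CPM in the H3WT libraries (log2 fold change 0.31 ± 0.12 SE, adjusted p 0.357). Psmd4, the ubiquitin receptor Rpn10, had 149, 152 and 134 CPM in the H3K9M libraries and 118, 120.2 and 113 CPM in the H3WT libraries (log2 fold change 0.31 ± 0.11 SE, adjusted p 0.324). Psmd14, the deubiquitinase Rpn11 of the lid, had 97.1, 73.8 and 82.5 CPM in the H3K9M libraries and 68.4, 72.5 and 49.2 CPM in the H3WT libraries (log2 fold change 0.41 ± 0.18 SE, adjusted p 0.408). The groups did not overlap in these 3 genes, though in Psmd14 they came as close as 73.8 and 72.5 CPM. Psmd1, the scaffold subunit Rpn2, was also separated, narrowly, at 222.4, 205.9 and 210.5 CPM in the H3K9M libraries and 198.5, 205.7 and 200.1 CPM in the H3WT libraries (log2 fold change 0.08 ± 0.11 SE, adjusted p 0.816). Psmd2, the scaffold subunit Rpn1 and the member with the most reads, had 385, 364 and 369.8 CPM in the H3K9M libraries and 356, 421 and 343 CPM in the H3WT libraries, with overlapping groups and a log2 fold change of -0.001 (SE 0.13). Psmd3, the lid subunit Rpn3, had 211, 174 and 198 CPM in the H3K9M libraries and 214, 217 and 191 CPM in the H3WT libraries, with the lower mean in H3K9M and overlapping groups (log2 fold change -0.09 ± 0.12 SE, adjusted p 0.814). Offset-adjusted, the 17 genes had a median of 0.02, that of the ATPases being -0.04, and none had an unadjusted p under 0.05 as higher.

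Summed over its 14 genes, the core had 1478, 1331 and 1321 CPM in the H3K9M libraries and 1066, 1150 and 968.3 CPM in the H3WT libraries. The base and lid together had 2921, 2650 and 2651 CPM against 2543, 2653 and 2305 CPM over 17 genes. The core sums of the groups did not overlap, and the base and lid sums did. The ratio of the sums, which does not depend on how libraries are scaled, was 0.506, 0.502 and 0.498 in the H3K9M libraries and 0.419, 0.433 and 0.420 in the H3WT libraries. Its mean was 0.502 ± 0.00374 against 0.424 ± 0.00801 (SD, n = 3 each), a gap far wider than the spread in either group. The core transcripts had the shorter median length, and the part of length or GC content in the ratio was not tested. The median log2 fold changes of the core and of base and lid were 0.36 and 0.14. Offset-adjusted, they were 0.09 and 0.02. Core and regulatory particle together differed by 0.21 on the log2 scale, and the 48 genes took 0.358% to 0.485% of all counts of a library.

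**Figure D3:**
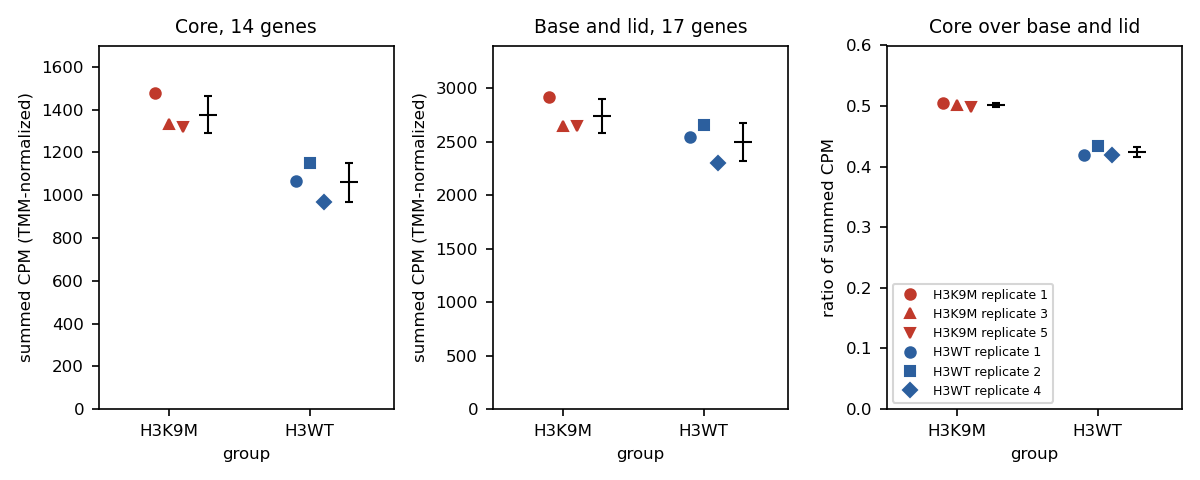
Summed CPM of the core and of the base and lid, and the ratio of the 2 sums (y axes, from 0), for each library by group (x axis), with black bars for the mean and SD of 3 libraries. The ratio lies between 0.498 and 0.506 in H3K9M and between 0.419 and 0.433 in H3WT.

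The active-site subunits of the immunoproteasome were near or at the limit of detection, apart from Psmb10. Psmb8, encoding β5i, had 2, 17 and 0 counts in the H3K9M libraries and 10, 9 and 36 counts in the H3WT libraries. Psmb9, encoding β1i, had 5, 6 and 0 counts in the H3K9M libraries and 9, 0 and 17 counts in the H3WT libraries. A count of 3 or fewer was treated as the floor, so Psmb8 was at the floor in H3K9M replicates 1 and 5, and Psmb9 in H3K9M replicate 5 and H3WT replicate 2. H3WT replicate 4 had the most reads of both. Psmb8 had a log2 fold change of -1.67 ± 1.38 (SE, with adjusted p 0.666) with groups that overlapped, and this fitted value rests on very few reads. Psmb10, encoding β2i, was measured well above the floor, at 9.38, 8.55 and 7.91 CPM in the H3K9M libraries and 7.02, 8.30 and 9.07 CPM in the H3WT libraries (log2 fold change 0.08 ± 0.25 SE, adjusted p 0.930), with overlapping groups. Both Psmb8 and Psmb9 lie in the MHC region of chromosome 17. Psmb9 overlaps Tap1 on the opposite strand, so its reads are uncertain if counting ignored strand. Psmb11, encoding the thymus-specific β5t, had 0 counts in every library.

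As a share of the reads of each pair, Psmb8 took 0.0928%, 0.561% and 0% of the reads of Psmb8 and Psmb5 in the H3K9M libraries and 0.561%, 0.473% and 2.27% in the H3WT libraries. The 95% Wilson interval of the highest, H3WT replicate 4, was 1.65% to 3.13%, which lay above those of all other libraries. For the count of 0 in H3K9M replicate 5 the upper limit of that interval was 0.181%. These intervals and limits cover counting error only. Psmb9 took 0.202%, 0.200% and 0% of the reads of Psmb9 and Psmb6 in H3K9M and 0.420%, 0% and 0.974% in H3WT. The Wilson upper limits for the counts of 0 were 0.133% in H3K9M replicate 5 and 0.157% in H3WT replicate 2. Psmb10 took 9.77%, 8.83% and 8.15% of the reads of Psmb10 and Psmb7 in H3K9M and 9.83%, 9.65% and 14.6% in H3WT. The 2 lowest shares of Psmb10 were in H3K9M libraries, and H3WT replicate 4 had the highest share in all 3 pairs. A share also moves with the constitutive gene. H3WT replicate 4 had 9.07 CPM of Psmb10, below H3K9M replicate 1 at 9.38, and 53.2 CPM of Psmb7, the lowest of any library. The log2 fold changes were 0.08 for Psmb10 and 0.43 for Psmb7. The log2 ratio of Psmb10 to Psmb7 was -3.36 ± 0.144 in H3K9M and -2.99 ± 0.382 in H3WT (SD, n = 3 each), a difference of -0.36 with an exact permutation p of 0.2 (two-sided), where 3 libraries against 3 cannot give less than 0.1. It was -0.14 without H3WT replicate 4. With 1 count added to each gene, because of the counts of 0, the ratios of Psmb8 to Psmb5 and of Psmb9 to Psmb6 differed by -2.55 (exact p 0.2) and -1.12 (exact p 0.5). Adjusted over the 3 ratios, with 1 count added to each, the p-values were 0.3 for Psmb8 and Psmb10 and 0.5 for Psmb9.

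**Figure D4:**
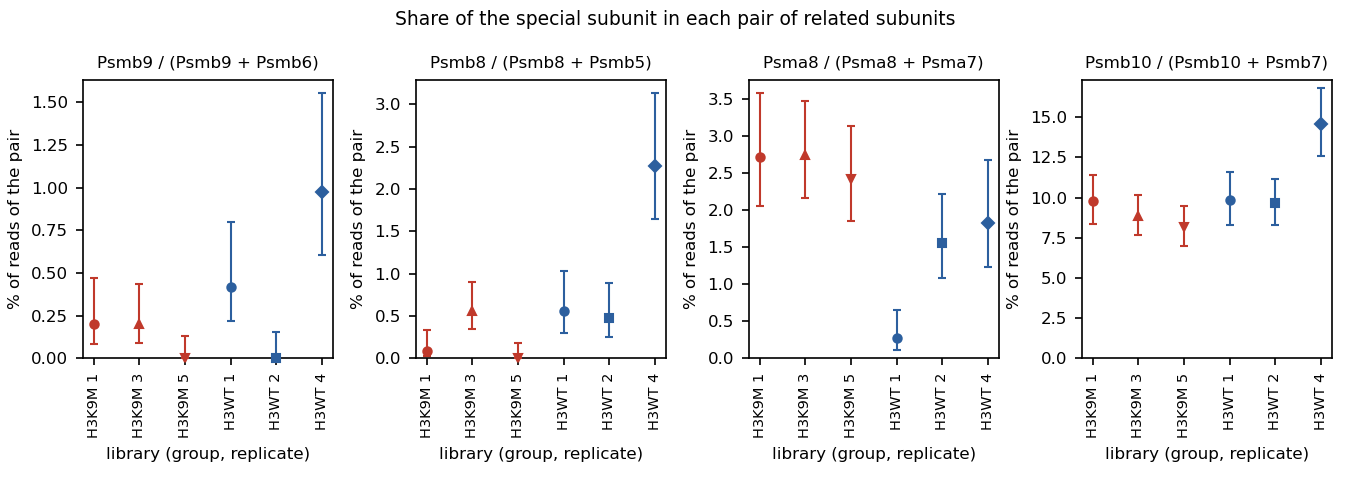
Share of reads (%, y axes from 0) of Psmb9, Psmb8, Psma8 and Psmb10 in each pair with the constitutive counterpart, for each library (x axis), with bars for the 95% Wilson interval of counting. H3WT replicate 4 has the highest Psmb8, Psmb9 and Psmb10 shares, and all 3 H3K9M libraries have higher Psma8 shares than the H3WT libraries.

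Psma8 encodes α4s, the testis form of α4 that takes the place of the Psma7 product in germ cells. It was scarce but present, with 48, 66 and 55 counts in the H3K9M libraries and 5, 29 and 25 counts in the H3WT libraries, or 3.22, 3.19 and 2.81 CPM in the H3K9M libraries and 0.281, 1.505 and 1.47 CPM in the H3WT libraries. Its groups did not overlap, and H3WT replicate 1 was far below the others. The log2 fold change was 1.49 ± 0.72 (SE, with adjusted p 0.447), the largest positive value among the 46 members, with the unadjusted p at 0.0711. Psma8 made up 2.72%, 2.74% and 2.41% of the reads of Psma8 and Psma7 in H3K9M and 0.280%, 1.55% and 1.82% in H3WT. The 95% Wilson intervals of H3WT replicate 4 (1.24% to 2.67%) and of each H3K9M library overlapped. The offset-adjusted log2 fold change was 1.25.

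Among the 5 activator and inhibitor genes, which act on the core without ATP, 2 had positive log2 fold changes and 3 negative. Psme1 and Psme2 encode PA28α and PA28β, which form an interferon-inducible cap. Psme1 had 32.3, 41.5 and 28.9 CPM in the H3K9M libraries and 37.8, 45.1 and 41.5 CPM in the H3WT libraries (log2 fold change -0.28 ± 0.18 SE, adjusted p 0.554), with a lower mean in H3K9M and overlapping groups. Psme2 had 22.2, 31.0 and 23.8 CPM in the H3K9M libraries and 20.6, 22.1 and 21.3 CPM in the H3WT libraries (log2 fold change 0.27 ± 0.18 SE, adjusted p 0.603), higher in H3K9M without overlap, the lowest H3K9M value being 22.2 and the highest H3WT value 22.1 CPM. Psme2 is 99.4% identical over 794 bases to Psme2b, so reads of either may be counted under the other, and Psme2b had a log2 fold change of -0.05 ± 0.28 (SE, with adjusted p 0.962). Offset-adjusted, Psme1 had -0.47 with an unadjusted p of 0.0257, the only member lower at an unadjusted p under 0.05 in that fit (4.41% of all genes were), and Psme2 had -0.01. Psme3, the nuclear PA28γ, had 112, 107 and 111 CPM in the H3K9M libraries and 111, 105 and 117 CPM in the H3WT libraries, and its log2 fold change of -0.01 ± 0.11 SE was among the smallest of the family. Psme4, encoding PA200, had 93.4, 98.2 and 123 CPM in the H3K9M libraries and 117, 119.6 and 98.0 CPM in the H3WT libraries (log2 fold change -0.08 ± 0.15 SE, adjusted p 0.868). Psmf1, encoding the proteasome inhibitor PI31, had 35.2, 32.4 and 32.5 CPM in the H3K9M libraries and 33.3, 31.4 and 32.3 CPM in the H3WT libraries (log2 fold change 0.04 ± 0.14 SE, adjusted p 0.930), nearly equal in the 6 libraries.

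Assembly chaperones guide the building of the core (Psmg1 to Psmg4) and of the base (Psmd5, Psmd9 and Psmd10). Psmd10, encoding gankyrin, had 16.7, 21.2 and 21.1 CPM in the H3K9M libraries and 10.3, 12.8 and 10.9 CPM in the H3WT libraries (log2 fold change 0.80 ± 0.21 SE, adjusted p 0.234). The H3K9M libraries were all above the H3WT libraries, and the fitted ratio of 1.74 was the largest among members with an unadjusted p under 0.05. Its offset-adjusted log2 fold change was 0.48. Psmg4, encoding PAC4, had 5.96, 4.98 and 5.97 CPM in the H3K9M libraries and 3.65, 3.58 and 4.01 CPM in the H3WT libraries (log2 fold change 0.59 ± 0.33 SE, adjusted p 0.507), also without overlap, at levels near the bottom of the family. The other 5 chaperones had overlapping groups and log2 fold changes from -0.01 (Psmd5) to 0.34 (Psmg3). In Psmg2, which encodes PAC2, H3WT replicate 2 had 6.33 CPM where the other libraries had 14.6 to 18.6 CPM.

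**Figure D5:**
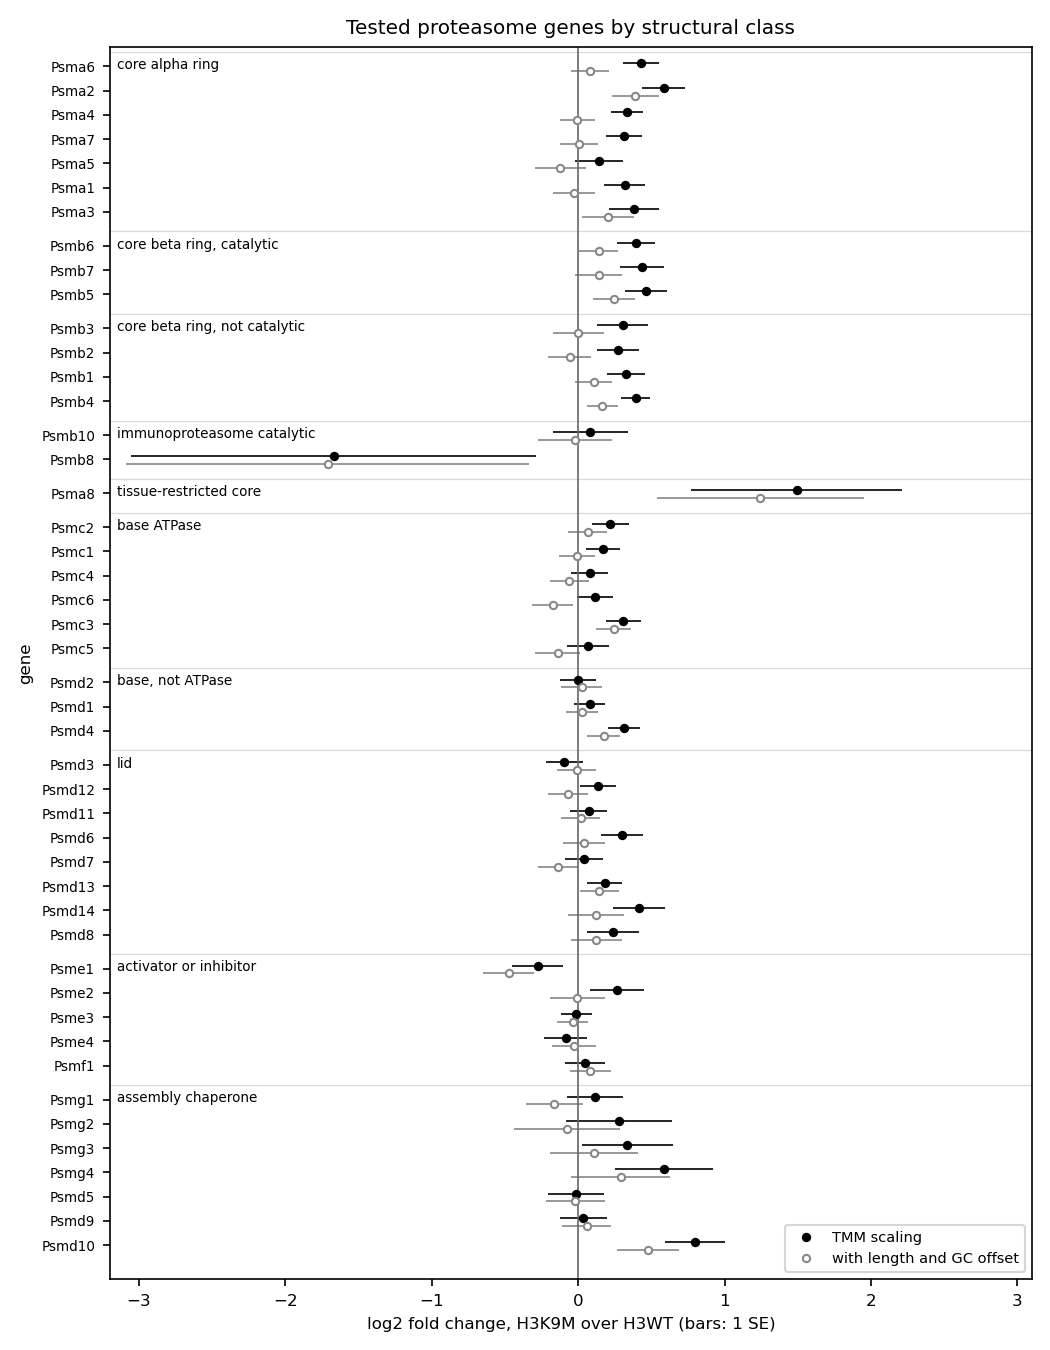
Log2 fold change of H3K9M over H3WT (x axis, bars 1 SE) for the 46 tested genes (y axis) by structural class, with TMM scaling (black) and with the length and GC offset (open grey). The black points of all 14 core genes lie above 0, and the grey points of the core lie nearer to 0, from -0.12 to 0.39.

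Levels of different subunits were compared as CPM per kilobase of transcript. The median over the 6 libraries was highest for Psmb6 at 170.3 and Psmd8 at 166.8 CPM per kb, and the ranges of these genes over the libraries overlapped. The 14 core genes spanned 22.5 (Psma3) to 170.3 CPM per kb although the particle holds equal numbers of each, and the 6 ATPases, also present in equal numbers, spanned 42.8 (Psmc6) to 119.6 CPM per kb (Psmc3). The annotated principal transcripts of Psma2 and Psma3 are 2911 and 2846 bases long, so their levels per kb depend on which transcript the cells use. The medians of the chaperones lay between 8.09 (Psmg4) and 18.3 (Psmd5) CPM per kb, below those of every core and base or lid gene. The range of Psmd5 over the libraries, 12.8 to 20.6 CPM per kb, overlapped that of Psma3, 16.7 to 29.8. The annotated transcript of Psmd5 is 4397 bases long, so its level per kb also depends on which transcript the cells use. Psmb10 had 6.43, Psma8 1.27, Psmb8 0.316 and Psmb9 0.231 CPM per kb.

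Proteins that work with the proteasome but carry other symbols were followed in a separate list of 11 genes in the table, all tested, of which 3 had an unadjusted p under 0.05, all higher (6.42% of all genes tested were). Pomp, the chaperone that places the beta ring in the nascent core, had 57.1, 60.0 and 56.4 CPM in the H3K9M libraries and 39.8, 39.4 and 40.3 CPM in the H3WT libraries (log2 fold change 0.54 ± 0.12 SE, adjusted p 0.206). Shfm1, the older symbol of Sem1, the smallest lid subunit, had 111, 94.2 and 107 CPM in the H3K9M libraries and 63.2, 76.0 and 68.5 CPM in the H3WT libraries (log2 fold change 0.59 ± 0.13 SE, adjusted p 0.202). Uchl5, a deubiquitinase bound to the base, had 32.6, 21.5 and 22.04 CPM in the H3K9M libraries and 18.8, 19.5 and 13.4 CPM in the H3WT libraries (log2 fold change 0.56 ± 0.24 SE, adjusted p 0.410). The groups did not overlap in any of the 3 (10.7% of all genes tested were higher without overlap), and the spread of Pomp was small in both. Offset-adjusted, Pomp had 0.35 and Uchl5 0.26 on the log2 scale, and no transcript length was found under the symbol Shfm1, so the offset was not applied to it. Adrm1 (Rpn13) and Usp14, both bound to the base, had log2 fold changes of -0.01 ± 0.12 (SE, with adjusted p 0.977) and 0.22 ± 0.13 (SE, with adjusted p 0.520).

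None of the genes for transcription factors of the proteasome genes passed the test, and 0% of all genes tested did. Nfe2l1, encoding Nrf1, had 449, 387 and 493 CPM in the H3K9M libraries and 435, 417 and 465 CPM in the H3WT libraries (log2 fold change 0.01 ± 0.13 SE, adjusted p 0.982), with overlapping groups and a sign that turned without H3K9M replicate 5 (-0.06) or H3WT replicate 2 (-0.01). Nrf1 is activated by processing of the protein, which RNA does not show. Nfe2l2, encoding its relative Nrf2, had 0.14 ± 0.12 (SE, with adjusted p 0.673). In this list of 9 genes 7 were tested and 0 had an unadjusted p under 0.05, with a median log2 fold change of 0.01. Offset-adjusted, Nfe2l1 had 0.18 and Nfe2l2 0.04, the median was 0.12, and 1 of the 7, Mafk, a small Maf partner of these factors, had an unadjusted p of 0.0447 (log2 fold change 0.42, against 0.29 without the offset).

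Among the genes for ubiquitin and its activating enzymes, Rps27a, which encodes ubiquitin fused to a ribosomal protein, had 319, 179 and 193 CPM in the H3K9M libraries and 131, 135 and 114 CPM in the H3WT libraries (log2 fold change 0.86 ± 0.22 SE, adjusted p 0.233). Its groups did not overlap, with H3K9M replicate 1 the highest. Ubb, a polyubiquitin gene induced by stress, had 0.11 ± 0.13 (SE, with adjusted p 0.775), and the activating enzyme Uba1 had -0.01 ± 0.12 (SE, with adjusted p 0.991). Offset-adjusted, Rps27a had 0.49. The list of 11 genes for ubiquitin shuttles and the p97 unfoldase had a median of -0.04 and 0 with an unadjusted p under 0.05. With the DESeq2 Wald test Pomp, Shfm1 and Rps27a had adjusted p-values of 0.0210, 0.0180 and 0.0213, where 1.40% of 13752 genes were called as higher and 1.43% as lower, and 0 of the 46 members were called.

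None of the genes of the interferon pathway that induces the immunoproteasome passed the test, and 0% of all genes tested did. Of its 20 genes, 18 were tested, with a median log2 fold change of -0.30, and 1 had an unadjusted p under 0.05 as higher and 3 as lower, where 6.42% and 5.77% of all genes tested were. Offset-adjusted, the counts were 1 and 2 (4.37% and 4.41% of all genes) and the median was -0.33. Irf1, a factor that binds immunoproteasome promoters, had 9.65, 17.2 and 17.7 CPM in the H3K9M libraries and 20.3, 14.3 and 15.7 CPM in the H3WT libraries (log2 fold change -0.17 ± 0.28 SE, adjusted p 0.855). Its groups overlapped. The receptor subunit gene Ifngr2 had 0.41 ± 0.16 (SE, with adjusted p 0.373), and the kinases Jak1 and Jak2 and the factor Stat2 had -0.66 ± 0.25 (SE, with adjusted p 0.357), -0.31 ± 0.13 (SE, with adjusted p 0.408) and -0.81 ± 0.31 (SE, with adjusted p 0.357). Tap1, the neighbour of Psmb9, had 11.7, 21.6 and 4.69 CPM in the H3K9M libraries and 16.0, 12.8 and 24.7 CPM in the H3WT libraries. Like Psmb8 and Psmb9 it was highest in H3WT replicate 4 and lowest in H3K9M replicate 5 (for Psmb9, level with H3WT replicate 2 at 0). Tap1 and Psmb9 overlap on opposite strands, so the reads of both are uncertain if counting ignored strand. Irf1 of the same list was highest in H3WT replicate 1 and lowest in H3K9M replicate 1.

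Marker lists of cell types and of mitosis were set beside the core. Skeletal muscle markers were higher in H3K9M at an unadjusted p under 0.05 in 4 of the 5 tested genes, and without H3K9M replicates 1 and 3 together, which leaves 1 H3K9M library assumed to vary like the others, the core median was 0.30, with 1 of 14 genes at an unadjusted p under 0.05 (1.95% of all genes tested were higher at that p in that fit). Chondrocyte markers had negative log2 fold changes in all 12 genes, and their sums ranged from 7338 to 11535 CPM in H3K9M and from 7255 to 19390 CPM in H3WT. Their part in the core's difference was not tested. Mitosis markers summed to 914.5 to 1638 CPM in H3K9M and 1087 to 1782 CPM in H3WT, and none of 10 had an unadjusted p under 0.05. Single libraries moved the core's count at an unadjusted p under 0.05. It was 13 of 14 without H3WT replicate 2 (9.09% of all genes tested were higher) and 5 of 14 without H3WT replicate 4 (5.50%), with medians of 0.44 and 0.31. It was 6 without H3K9M replicate 1 (4.35%), 9 without H3K9M replicate 3 (5.33%), 7 without H3K9M replicate 5 (5.84%) and 6 without H3WT replicate 1 (4.92%). Similar transcripts elsewhere in the genome, or an overlapping gene, make the counts of many members uncertain. The 5 core genes with neither had a median of 0.32, with 3 higher at an unadjusted p under 0.05 (6.42% of all genes tested were). Offset-adjusted, these genes had -0.03 (Psma1), 0.08 (Psma6), 0.006 (Psma7), -0.06 (Psmb2) and 0.17 (Psmb4).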

How the data were processed

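The deposited values are whole-number read counts of each gene symbol in each library, made by the authors and not normalized. The submitters' processing notes name HISAT2, featureCounts, DESeq2 and mm10, with no versions. The annotation and the strand and multi-mapping settings are not given in the sources used here, and the library kit was Tecan Universal Plus mRNA-Seq, per the labels' protocols. Each column matched the title of 1 sample.

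Counts were fitted in R 4.3.3 with edgeR 4.0.16 (filterByExpr, TMM, glmQLFit with robust estimation, glmQLFTest) comparing the 2 genotypes over 6 libraries with no covariate. Benjamini-Hochberg adjustment ran over 13761 genes (threshold 0.05). The SE is the log2 fold change over the square root of F. Per-library deviations used log2(CPM + 0.5). The common biological coefficient of variation was 0.336. Alternatives were DESeq2 1.42.0, limma-voom (limma 3.58.1), other scalings and filters, an offset for length and GC by loess within each library (span 0.5), and leaving out libraries. The fit was also run on counts simulated from its own dispersions, with changes larger than those of the core and no trend with length. That run does not bear on the small differences described here. Lengths are of the longest APPRIS principal transcript in GENCODE M21 (94.3% of tested genes). Similar transcripts, at 90% identity over 200 bases or more, were found with blastn 2.17.0.

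Members and lists were chosen with earlier results of these data known. Members named with library values were the active-site subunits and their interferon-inducible forms, Psme genes and Psmf1, members with an unadjusted p under 0.05 or groups that do not overlap, and the 3 smallest p-values in each direction. Genes of the other lists were named where the unadjusted p was under 0.05, with Nfe2l1, Pomp and Irf1 always named, and a few genes of these lists are not reported here. Any other gene was named after its values were seen.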

Additional observations from a re-analysis of the deposited data

How the results depend on the processing

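The number of genes with an adjusted p under 0.05 was 0 with edgeR, 390 with DESeq2, 36 when every gene with a count was tested and 0 to 91 with 1 library left out (91 without H3WT replicate 2). The number of proteasome members called was 0 under every alternative run at an adjusted p under 0.05. It was also 0 at an adjusted p under 0.10, a threshold applied to the main edgeR fit only. With the DESeq2 Wald test Psmd10, Psma2 and Psmb4 had adjusted p-values of 0.0504, 0.0537 and 0.0558, the smallest among the members. Members higher at an unadjusted p under 0.05 numbered 13 (6.42% of all genes tested were). With 1 library left out they numbered 6 (without H3WT replicate 4, 5.50% of all genes) to 20 (without H3WT replicate 2, 9.09%). Members lower at that p numbered 0 (5.77% of all genes were), and 0 to 1 with 1 library left out. Core genes higher at that p numbered 9, and 5 to 13 in the same fits, with the same shares. With the length and GC offset these 3 counts were 1, 1 and 1, where 4.37% of all genes were higher and 4.41% lower. Leaving out H3K9M replicates 1 and 3 together was chosen after seeing the data and rests on 1 H3K9M library, so only its effect sizes are given.

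Median log2 fold changes with the offset were 0.021 for all members, 0.093 for the core, 0.0056 for the alpha ring, 0.14 and 0.053 for the beta subunits with and without active sites, -0.036 for the ATPases, 0.028 for the lid, 0.025 for base and lid together and 0.057 for the chaperones. With 1 library left out the median ranged over 0.15 to 0.29 for all members, 0.11 to 0.37 for the chaperones and -0.020 to 0.030 for the activators, which had 0.045 when scaled by library size alone. Without H3K9M replicates 1 and 3 it was 0.16 for all members and 0.16 for the chaperones. The immunoproteasome median (Psmb8 and Psmb10) was -0.79, -1.25 with every gene with a count tested (which adds Psmb9), 0.078 with at least 10 counts in every library (which leaves Psmb10 alone), -1.91 to -0.25 with 1 library left out and -6.23 without H3K9M replicates 1 and 3. In the last case Psmb9 also entered the fit and the remaining H3K9M library had 0 counts of Psmb8 and Psmb9, so that value depends on the prior count of the fit and is neither an estimate nor a bound.

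The sign of the log2 fold change was followed for genes named under the rules above, not for every member. Those that turned were Psma1 (-0.031), Psma4 (-0.0058), Psme2 (-0.0062) and Psmb10 (-0.024) with the offset, and Psme3 with library size alone (0.045). Other members also turned with the offset, among them the core genes Psma5 (-0.12) and Psmb2 (-0.057), and Psmd2 (0.025). Without H3K9M replicates 1 and 3, Irf1 (0.084), Psmb10 (-0.034), Psme3 (0.0071) and Psme4 (0.15) turned. With 1 library left out the ranges that crossed 0 were -0.31 to 0.057 for Irf1, -0.061 to 0.11 for Nfe2l1, -0.013 to 0.17 for Psmb10 and -0.040 to 0.030 for Psme3. The causes were not tested. The log2 ratios of Psmb8 to Psmb5 and Psmb9 to Psmb6 could be computed only with 1 count added, because some libraries had 0 counts. No paired analysis was possible because the groups share only 1 replicate number. Depth limits Psmb8, Psmb9 and Psma8, which rest on at most 66 counts in a library.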
